A study of Mus musculus with 6 samples.

Results

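The genes described here are 35 genes of glucose uptake, glycolysis, lactate production and transport, control of pyruvate oxidation and the response to low oxygen, taken by name from a table of 34745 genes. They were measured by RNA sequencing in mouse cerebral cortex at postnatal day 8. Both groups were homozygous for floxed Pen-2 (Pen-2 F/F). The 3 Pen-2 cKO samples, called cKO, also carried hGFAP-Cre, and the 3 Control samples did not. PEN-2, encoded by *Psenen*, is a subunit of gamma-secretase, the protease that activates Notch receptors. The Cre recombinase is driven by a human GFAP promoter, which is known to be active in radial glia, the progenitors of cortical neurons and glia, as well as in astrocytes. Nothing in the labels states that the samples are from different animals, and the p-values describe only how these samples spread. Since Control samples lacked Cre, its own effect and that of losing Pen-2 cannot be told apart.

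Glycolysis turns glucose into pyruvate. Lactate dehydrogenase can convert pyruvate to lactate, which leaves the cell through monocarboxylate transporters, while pyruvate that enters the mitochondria is converted to acetyl-CoA by pyruvate dehydrogenase unless that enzyme's kinases switch it off. In brain, many of these steps have isoforms that differ between cells: aldolase C is concentrated in astrocytes, neuron-specific enolase and the glucose transporter GLUT3 in neurons, and GLUT1 in endothelium and glia. When oxygen is low, HIF alpha subunits escape the prolyl hydroxylases that mark them for degradation, bind DNA together with ARNT and raise transcription of glycolytic genes, *Vegfa*, *Bnip3* and others.

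Values are FPKM, fragments per length of gene and per depth of library, a scale on which levels of different genes can be set side by side. That is less certain where near-identical copies of a gene share its fragments, as described below for *Eno1*. Depths estimated from the lowest values were 25123135 to 26809309 fragments in cKO and 20251853 to 24872645 in Control libraries. *Psenen* was 3.56, 3.90 and 4.03 FPKM in cKO and 6.35, 6.86 and 7.32 FPKM in Control libraries. The test was limma on log2(FPKM + 0.1) over 14147 genes, with p-values adjusted over all of them and a threshold of 0.05. In that fit 5.53% of tested genes passed, 3.67% higher and 1.87% lower in cKO. The split of 519 higher and 264 lower depended on scaling: it was 314 and 343 by median ratios, 351 and 346 by upper quartiles, 907 and 244 when libraries were set to equal sums, 324 and 385 when length and GC content were corrected for, and 330 and 309 without cKO replicate 3.

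Cell type markers differed between the groups. Summed FPKM of 14 astrocyte markers was 166.8, 167.8 and 236.9 in cKO and 465.4, 524.8 and 556.2 in Control libraries. The oligodendrocyte lineage sum of 12 markers was 314.4 to 404.5 in cKO and 111.9 to 147.2 in Control libraries, and the sum of 8 cell cycle genes 26.8 to 29.5 and 12.2 to 13.7. Sums of 10 neuron markers were 1925 to 2058 in cKO and 2271 to 2348 in Control libraries, lower in each cKO library. Markers of 8 genes each gave 56.3 to 60.8 and 44.7 to 52.8 for endothelium, 57.3 to 59.8 and 44.3 to 51.3 for mural cells, 110.6 to 181.8 and 77.0 to 98.9 for microglia, and 73.0 to 109.5 and 38.9 to 53.7 for meningeal fibroblasts. The lists are not independent: the oligodendrocyte lineage list shares *Cspg4* with the mural list and *Pdgfra* with the meningeal fibroblast list. The choroid plexus sum of 6 markers was 346.3, 200.9 and 912.8 in cKO libraries and 46.3, 117.8 and 194.2 in Control libraries, which sets cKO replicate 3 apart, and 5 red blood cell genes summed to 110.3 to 171.3 and 114.9 to 218.6. By gene, 10 of 14 astrocyte markers fell, and 10 of 12 oligodendrocyte lineage and 7 of 8 cell cycle markers rose. Over all tested genes 1.87% fell and 3.67% rose. Of 10 neuron markers 1 rose and 1 fell, and of 8 mural markers 2 rose and 1 fell. In endothelium 1 of 8 rose and in meningeal fibroblasts 3 of 8. None passed among microglia, red blood cell and the 4 tested choroid plexus markers. The microglia and choroid plexus sums thus differ without called genes, while the red blood cell sums overlap between groups. No marker in these lists was at 0 in any library. In bulk tissue, fewer cells of a type and less RNA per cell cannot be told apart, and the part of cell composition in the results was not tested.

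**Figure D1:**
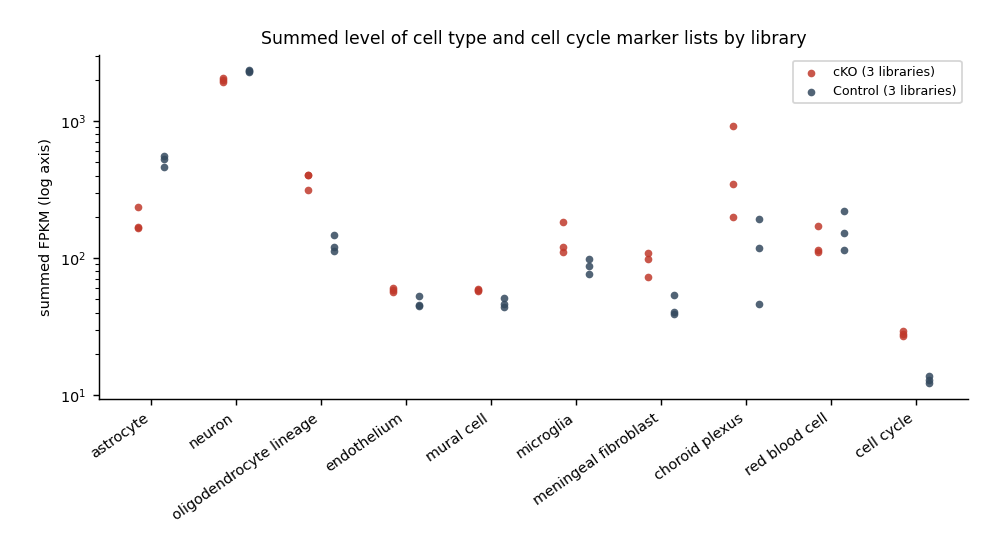
Summed FPKM (log axis) of each marker list, one point per library, for cKO (left, red) and Control (right, dark). Astrocyte sums lie below Control in each cKO library (166.8 to 236.9 against 465.4 to 556.2), oligodendrocyte lineage and cell cycle sums lie above, and the choroid plexus sum is highest in cKO replicate 3 (912.8).

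Of the 35 genes, 9 rose and 3 fell in cKO cortex, which is 25.7% and 8.57% of them beside 3.67% and 1.87% of tested genes. The genes that rose were *Hk2*, *Gpi1*, *Pfkl*, *Pgk1*, *Pkm*, *Ldha*, *Slc16a3*, *Pdk1* and *Bnip3*, and those that fell were *Aldoc*, *Pdk4* and *Epas1*. The median log2 difference was 0.19, against 0.07 over all tested genes. Groups did not overlap in 16 genes that lay higher and 3 that lay lower in cKO, where 21.5% and 8.17% of tested genes did so in each direction. All 35 reached the filter of 0.5 FPKM in 3 libraries, but *Hk2* and *Slc16a3* did so through the cKO libraries, with 1 Control library each at or over it, and *Pdk4* through the Control libraries, with 2 cKO libraries at or over it. These genes entered the test through the group in which they were high, and the counts of 9 and 3 include them.

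**Figure D2:**
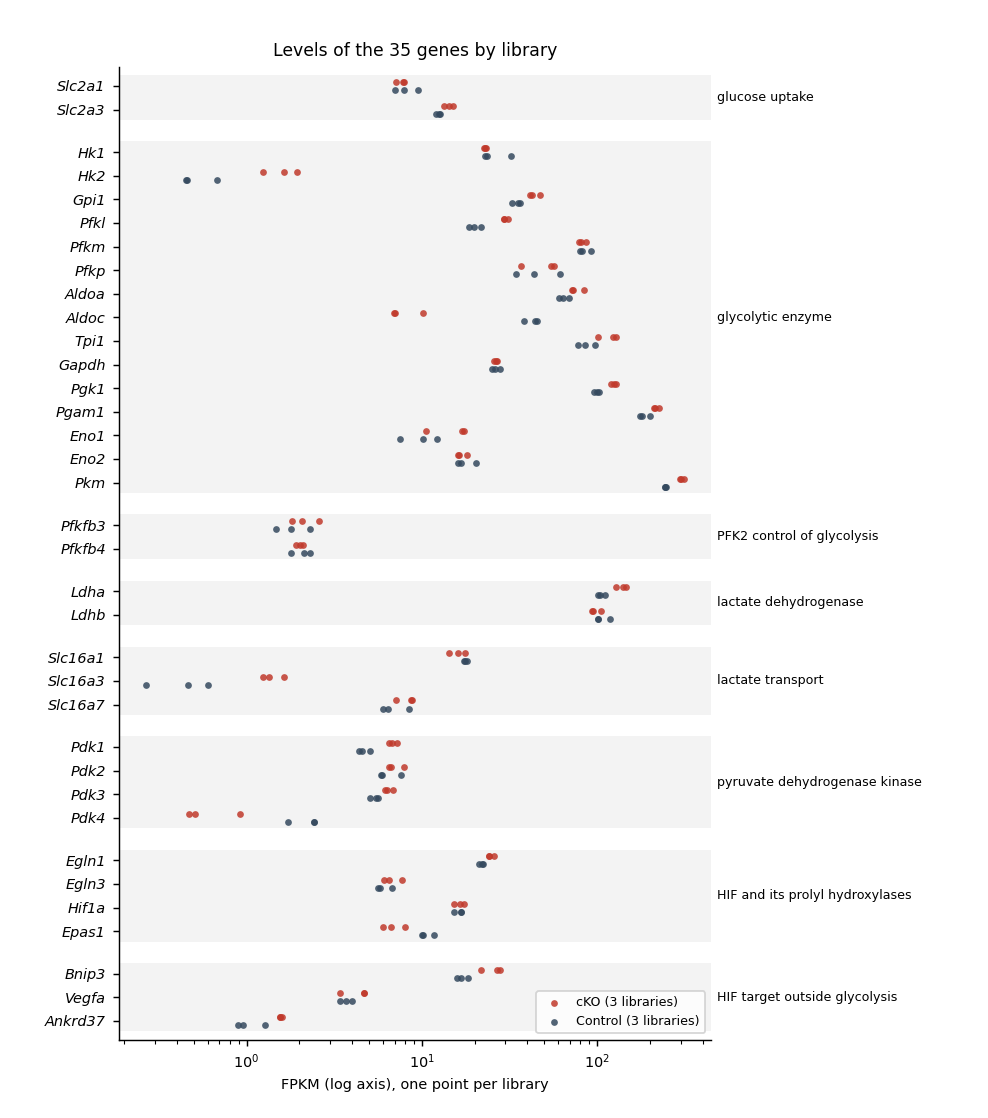
FPKM (log axis) of the 35 genes in each library, grouped by role, with cKO points (red) drawn above Control points (dark). *Aldoc* and *Pdk4* stand lower and *Hk2* and *Slc16a3* higher in each cKO library, while most of the abundant enzymes, such as *Pkm* (296.7 to 314.8 against 244.0 to 246.3 FPKM), differ by small steps.

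Neither of the main glucose transporter genes of brain passed. *Slc2a3*, which encodes GLUT3, was 14.2, 15.02 and 13.4 FPKM in cKO and 12.1, 12.5 and 12.7 FPKM in Control libraries. These groups did not overlap, but the log2 difference of 0.19 (95% interval 0.04 to 0.34) did not pass (limma, adjusted p = 0.144). *Slc2a1*, which encodes GLUT1, was 7.11, 7.83 and 7.92 FPKM in cKO and 7.87, 9.45 and 7.02 FPKM in Control libraries, with overlapping groups and a log2 difference of -0.08 (95% interval -0.35 to 0.19).

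The 15 glycolytic enzyme genes summed to 1133.5, 1154.8 and 1113.6 FPKM in cKO and 976.0, 966.4 and 1029.9 FPKM in Control libraries, a ratio of the means of 1.14. Of these genes 5 rose and 1 fell. The hexokinases, which trap glucose as its phosphate, differed within the family. *Hk2* (ENSMUSG00000000628, mm10 chromosome 6, 82725025 to 82774454), the inducible hexokinase of muscle, tumours and activated cells, was 1.93, 1.64 and 1.24 FPKM in cKO and 0.458, 0.454 and 0.680 FPKM in Control libraries. Its lowest cKO value was above its highest Control value, and it rose by 1.43 on the log2 scale (SE 0.22, limma, adjusted p = 0.0155). With 1 Control library at or over the filter, *Hk2* was tested only because of its cKO values. *Hk1*, the predominant brain hexokinase, was 23.3, 22.6 and 23.0 FPKM in cKO and 23.6, 23.0 and 32.2 FPKM in Control libraries, and did not pass. Its Control replicate 3 was the single high value.

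Further along the pathway, *Gpi1*, which interconverts glucose and fructose phosphates, was 41.6, 47.4 and 42.3 FPKM in cKO and 36.1, 35.5 and 32.7 FPKM in Control libraries. It rose by 0.33 (SE 0.07, limma, adjusted p = 0.0405) on the log2 scale, but passed in 5 of 11 other settings and in none of the 6 fits with 1 library left out. Phosphofructokinase makes the committed step. Its liver-type gene *Pfkl* (ENSMUSG00000020277, mm10 chromosome 10, 77986947 to 78010083) was 30.9, 29.3 and 29.3 FPKM in cKO and 19.9, 18.5 and 21.9 FPKM in Control libraries, with no overlap. *Pfkl* rose by 0.57 (SE 0.07, limma, adjusted p = 0.00653) on the log2 scale and passed in each of the 6 fits with 1 library left out. The muscle-type gene *Pfkm*, the most abundant of the 3, was 78.5, 80.8 and 86.5 FPKM in cKO and 80.2, 82.4 and 91.8 FPKM in Control libraries and did not pass. *Pfkp*, the platelet type, ranged from 37.0 to 57.0 FPKM in cKO and from 34.4 to 61.3 FPKM in Control libraries, the widest spread of the 3, and replicate 3 was the lowest of each group.

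Aldolase splits the 6-carbon sugar. *Aldoc* (ENSMUSG00000017390, mm10 chromosome 11, 78322968 to 78327781), the astrocyte-enriched form, was 7.04, 6.96 and 10.2 FPKM in cKO and 38.5, 44.0 and 45.5 FPKM in Control libraries. It fell by 2.41 on the log2 scale (SE 0.15, limma, adjusted p = 0.000545), with a cKO mean 0.189 times that of Control, the largest difference among the 35 genes. Astrocyte marker sums beside it were 166.8 to 236.9 in cKO and 465.4 to 556.2 in Control libraries. *Aldoa*, the aldolase of most tissues, was 72.045, 72.4 and 84.4 FPKM in cKO and 63.6, 60.9 and 69.0 FPKM in Control libraries. The groups of *Aldoa* did not overlap, but its log2 difference of 0.24 did not pass (adjusted p = 0.129) except when libraries were set to equal sums.

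Among the later steps, *Pgk1*, which makes the first ATP of the pathway, was 124.3, 127.8 and 119.2 FPKM in cKO and 96.3, 100.2 and 102.1 FPKM in Control libraries. Without overlap between groups, it rose by 0.31 (SE 0.05, limma, adjusted p = 0.0155) on the log2 scale. *Pkm*, the pyruvate kinase of brain, was 300.5, 296.7 and 314.8 FPKM in cKO and 244.6, 244.0 and 246.3 FPKM in Control libraries. These were the highest of the 35 genes as listed, without fragments that copies of other genes may have taken. *Pkm* rose by 0.31 (SE 0.04, limma, adjusted p = 0.00974), and its 3 Control values lay close together. Gene values do not separate the spliced forms of *Pkm*. None of *Tpi1*, *Pgam1* and *Gapdh* passed (log2 differences 0.43, 0.23 and 0.01). *Tpi1* ranged from 101.7 to 127.6 FPKM in cKO and from 78.2 to 96.7 FPKM in Control libraries, and passed without cKO replicate 3. *Pgam1* ranged from 210.3 to 225.9 FPKM in cKO and from 174.7 to 200.7 FPKM in Control libraries. *Gapdh*, often used as a reference gene, was 25.9 to 26.98 FPKM in cKO and 25.1 to 27.9 FPKM in Control libraries, and its sign turned with median-ratio and upper-quartile scaling.

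Enolase values carried a limit of counting. *Eno1*, the enolase of non-neuronal cells, was 16.9, 17.3 and 10.6 FPKM in cKO and 10.1, 12.2 and 7.51 FPKM in Control libraries, while its retrotransposed copy *Eno1b* was listed at 84.8, 90.6 and 115.7 FPKM and at 83.1, 60.9 and 88.3 FPKM. Fragments of near-identical copies can be assigned to either, so the level of *Eno1* alone is uncertain. Summed, the pair was 101.7, 107.9 and 126.3 FPKM in cKO and 93.2, 73.1 and 95.8 FPKM in Control libraries. *Eno2*, the neuronal enolase, was 16.3, 18.1 and 16.1 FPKM in cKO and 15.995, 16.8 and 20.4 FPKM in Control libraries. Neither enolase passed. Other copies included *Pgam1-ps2* at 75.9 to 80.3 and 57.5 to 67.1 FPKM and *Tpi-rs11* at 16.3 to 17.8 and 4.78 to 10.9 FPKM. *Pgam1-ps2* itself passed (log2 difference 0.32, limma, adjusted p = 0.037). *Tpi-rs11* did not (1.08, limma, adjusted p = 0.0863). The levels of *Pgam1* and *Tpi1*, and their lack of a call, thus share the same uncertainty. *Ldha-ps2* was lower, at 0.811 to 1.09 and 0.794 to 1.36 FPKM, as was *Pgk1-rs7*, at 0.354 to 0.575 and 0.134 to 0.534 FPKM. For *Gapdh* only the copy *Gapdh-ps15* was looked at, at 0.037 to 0.119 FPKM in cKO and 0 to 0.241 FPKM in Control libraries. Whether other copies took fragments of *Gapdh* was not tested. The enzymes that make the fructose bisphosphate activator of phosphofructokinase stood low. *Pfkfb3* was 1.83, 2.59 and 2.06 FPKM in cKO and 2.30, 1.80 and 1.47 FPKM in Control libraries, and *Pfkfb4* was 1.92 to 2.10 FPKM in cKO and 1.78 to 2.30 FPKM in Control libraries. Neither passed.

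**Figure D3:**
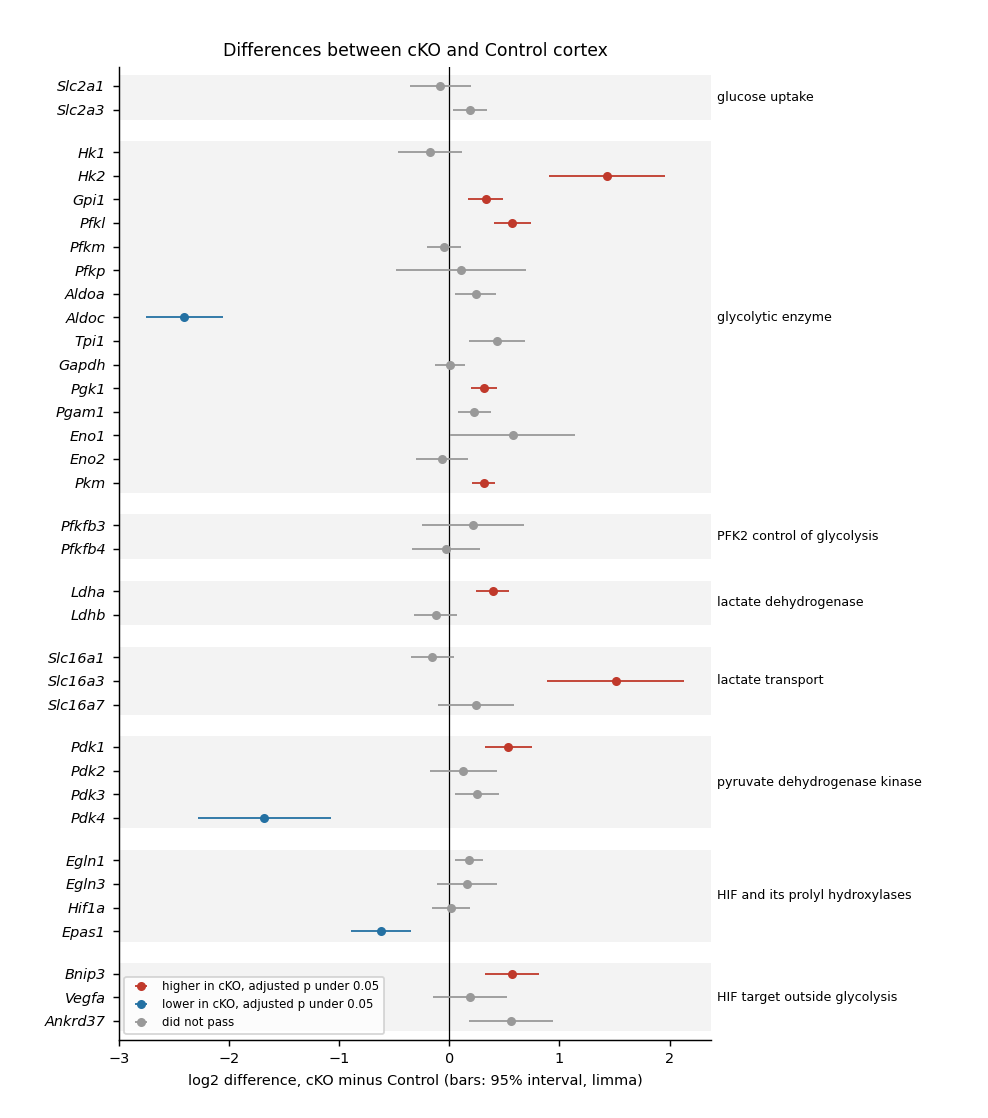
Log2 difference, cKO minus Control, of each gene with its 95% interval from limma, grouped by role. Red points passed an adjusted p of 0.05 and were higher in cKO, blue points passed and were lower, grey points did not pass. *Aldoc* (-2.41), *Pdk4* (-1.68) and *Epas1* (-0.62) are the blue points.

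The lactate dehydrogenase genes separated. *Ldha* (ENSMUSG00000063229, mm10 chromosome 7, 46841475 to 46855627), whose subunit favours lactate formation, was 140.4, 146.4 and 128.2 FPKM in cKO and 100.7, 104.4 and 110.6 FPKM in Control libraries. The groups did not overlap, and *Ldha* rose by 0.39 (SE 0.06, limma, adjusted p = 0.0178) on the log2 scale. *Ldhb*, whose subunit favours lactate use, was 94.4, 93.5 and 105.6 FPKM in cKO and 101.0, 100.6 and 118.9 FPKM in Control libraries and did not pass (log2 difference -0.12, 95% interval -0.32 to 0.07). *Ldha* made up 58.6% ± 3.28 of the summed FPKM of the pair in cKO and 49.7% ± 1.39 in Control libraries (SD, n = 3 each).

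Among monocarboxylate transporters, *Slc16a3* rose. *Slc16a3* (ENSMUSG00000025161, mm10 chromosome 11, 120948480 to 120960868) encodes MCT4, the low-affinity exporter of strongly glycolytic cells. It was 1.64, 1.23 and 1.35 FPKM in cKO and 0.465, 0.265 and 0.606 FPKM in Control libraries, and rose by 1.51 on the log2 scale (SE 0.27, limma, adjusted p = 0.0228). At its longest annotated transcript these values correspond to about 140 to 179 fragments in cKO and 23 to 65 in Control libraries, so the Control level rests on few fragments. Like *Hk2*, *Slc16a3* had 1 Control library at or over the filter and was tested only because of its cKO values. *Slc16a1*, which encodes MCT1, was 16.2, 14.2 and 17.7 FPKM in cKO and 17.5, 17.7 and 18.2 FPKM in Control libraries, with a log2 difference of -0.15 (95% interval -0.35 to 0.04). *Slc16a7*, the neuronal MCT2, was 8.69, 8.79 and 7.12 FPKM in cKO and 6.40, 5.98 and 8.46 FPKM in Control libraries. Neither of these more abundant transporters passed.

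Pyruvate dehydrogenase kinases moved in opposite directions. *Pdk1* was 7.26, 6.76 and 6.47 FPKM in cKO and 4.58, 4.401 and 5.08 FPKM in Control libraries and rose by 0.53 (SE 0.09, limma, adjusted p = 0.0202) on the log2 scale. *Pdk4* (ENSMUSG00000019577, mm10 chromosome 6, 5483351 to 5496309), which is induced by fasting and fatty acids in other tissues, was 0.4696, 0.510 and 0.917 FPKM in cKO and 2.41, 2.43 and 1.73 FPKM in Control libraries. It fell by 1.68 (SE 0.26, limma, adjusted p = 0.0146), and the groups did not overlap for either gene. Longest-transcript estimates for *Pdk4* were about 41 to 86 fragments in cKO and 150 to 182 in Control libraries. It reached the filter through the Control libraries, where it was high, with 2 cKO libraries at or over it. *Pdk2* and *Pdk3* were 6.49 to 7.91 and 6.13 to 6.88 FPKM in cKO and 5.84 to 7.57 and 5.09 to 5.59 FPKM in Control libraries and did not pass. As a share of the 4 kinases, *Pdk4* held 3.0025% ± 1.08 in cKO and 11.8% ± 2.76 in Control libraries (SD, n = 3 each).

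Of the HIF system itself, *Epas1* fell. It encodes the HIF alpha subunit that is prominent in endothelium and is also expressed in astrocytes. *Epas1* (ENSMUSG00000024140, mm10 chromosome 17, 86753907 to 86833410) was 6.70, 6.004 and 7.97 FPKM in cKO and 10.1, 10.03 and 11.7 FPKM in Control libraries, with no overlap, and fell by 0.62 on the log2 scale (SE 0.12, limma, adjusted p = 0.0286). Summed FPKM of endothelial markers was 56.3 to 60.8 in cKO and 44.7 to 52.8 in Control libraries, and that of astrocyte markers 166.8 to 236.9 and 465.4 to 556.2. The part of either in the fall of *Epas1* was not tested. *Hif1a*, the widely expressed alpha subunit, was 17.3, 16.6 and 15.2 FPKM in cKO and 15.2, 16.6 and 16.7 FPKM in Control libraries. Its log2 difference was 0.01 (95% interval -0.15 to 0.18) and turned negative with median-ratio and upper-quartile scaling. Among the prolyl hydroxylase genes, *Egln1* was 25.8, 24.2 and 24.3 FPKM in cKO and 21.2, 21.97 and 22.5 FPKM in Control libraries, without overlap (log2 difference 0.18, adjusted p = 0.114). *Egln3* was 6.12 to 7.75 FPKM in cKO and 5.62 to 6.77 FPKM in Control libraries, and neither passed. HIF alpha subunits are controlled mainly as proteins, which these data do not measure.

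The genes grouped here as HIF targets outside glycolysis were *Bnip3*, *Vegfa* and *Ankrd37*. This grouping was made by background knowledge and is not a full list of HIF targets among the 35 genes. *Bnip3* (ENSMUSG00000078566, mm10 chromosome 7, 138890836 to 138909519), a mitophagy receptor, was 26.8, 27.8 and 21.8 FPKM in cKO and 16.7, 15.96 and 18.4 FPKM in Control libraries. It rose by 0.57 (SE 0.10, limma, adjusted p = 0.0249) on the log2 scale without overlap. *Ankrd37* was 1.55, 1.55 and 1.60 FPKM in cKO and 0.959, 1.28 and 0.889 FPKM in Control libraries, so the groups did not overlap, but it did not pass (log2 difference 0.56, adjusted p = 0.0989). Its longest transcript gives about 36 to 40 fragments in cKO and 19 to 24 in Control libraries. *Vegfa*, the endothelial growth factor, was 4.65, 4.70 and 3.43 FPKM in cKO and 4.01, 3.69 and 3.41 FPKM in Control libraries, with overlapping groups.

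The calls differed in how they held when 1 library was left out. *Aldoc* and *Pfkl* passed in all 6 such fits, and *Pkm* passed in all except that without Control replicate 2 (adjusted p = 0.0527). *Hk2*, *Pgk1*, *Ldha*, *Pdk1* and *Bnip3* passed without cKO replicate 3 or Control replicate 3 and lost the call without any of the other 4 libraries, with the highest adjusted p between 0.0698 and 0.0996. *Pdk4* lost it without cKO replicate 2, Control replicate 1 or Control replicate 2 (at most 0.0751), *Slc16a3* without any library but Control replicate 3 (at most 0.0885), and *Epas1* without any but cKO replicate 3 (at most 0.0956). The count of genes that rose was 2, 2 and 8 without cKO replicates 1, 2 and 3 and 2, 1 and 9 without Control replicates 1, 2 and 3, and the count that fell was 2, 1, 3, 1, 1 and 2 in the same order. No called gene changed sign in any setting, and their log2 values in these 6 fits stayed within -2.59 to -2.32 for *Aldoc*, 0.51 to 0.63 for *Pfkl*, 1.30 to 1.60 for *Hk2* and 0.35 to 0.45 for *Ldha*.

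Ratios between related genes within a library do not move with library scaling, and 12 were compared. With 3 samples against 3 the exact two-sided permutation test cannot go below p = 0.1, so none could pass. Groups did not overlap in 6 of the 12, 3 higher and 3 lower in cKO, and each of these 6 reached that smallest p (0.2 after adjustment over the 12). The ratio of *Aldoc* to *Aldoa* was 0.0977, 0.0961 and 0.120 in cKO and 0.606, 0.724 and 0.659 in Control libraries, a log2 difference of -2.67. *Aldoc* was 9.47% ± 1.10 of the aldolase pair in cKO and 39.8% ± 2.13 in Control libraries (SD, n = 3 each). *Aldoa* was the larger part of the pair in both groups, at 90.5% in cKO and 60.2% in Control libraries.

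The other ratios apart between groups were smaller. *Ldhb* to *Ldha* was 0.672, 0.639 and 0.824 in cKO and 1.003, 0.964 and 1.076 in Control libraries (log2 difference -0.52). *Epas1* to *Hif1a* was 0.387, 0.362 and 0.524 in cKO and 0.665, 0.603 and 0.698 in Control libraries (-0.64). In both families the second gene named took a larger share in each cKO library than in any Control library. *Pfkl* to *Pfkm* was 0.393, 0.362 and 0.339 in cKO and 0.248, 0.225 and 0.238 in Control libraries (0.62). For *Hk2* to *Hk1* the ratios were 0.0828, 0.0725 and 0.0539 in cKO and 0.0194, 0.0197 and 0.0211 in Control libraries (1.77), so *Hk2* remained a small part of the pair. *Slc16a3* to *Slc16a1* was 0.101, 0.0867 and 0.0761 in cKO and 0.0266, 0.0150 and 0.0334 in Control libraries (1.88).

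Some pairs used to set neurons against glia overlapped between groups. *Slc2a1* to *Slc2a3* had a log2 difference of -0.27 (exact p = 0.2), *Slc16a1* to *Slc16a7* of -0.40 (exact p = 0.2) and *Eno1* to *Eno2* of 0.65 (exact p = 0.2). With *Eno1b* added to *Eno1*, an alternative chosen after seeing the data, the last was 0.43 (exact p = 0.1, the smallest possible). In that alternative the groups did not overlap. *Pfkp* to *Pfkm*, *Pfkfb4* to *Pfkfb3* and *Egln3* to *Egln1* also overlapped, at 0.15, -0.26 and -0.01.

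**Figure D4:**
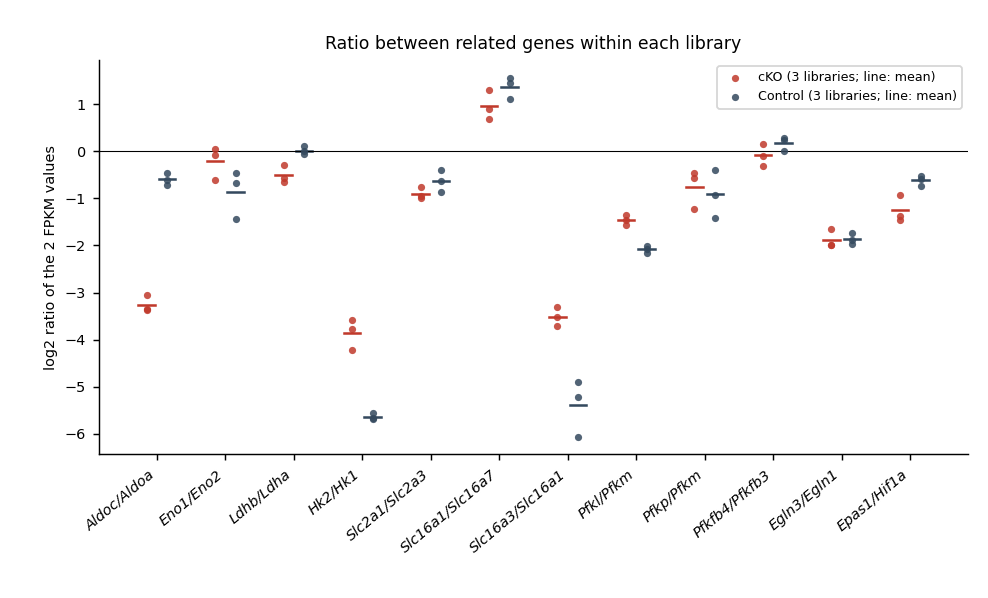
Log2 ratio of the FPKM of 2 related genes in each library, with the mean as a line, for cKO (left, red) and Control (right, dark). Groups are apart for *Aldoc/Aldoa*, *Ldhb/Ldha*, *Hk2/Hk1*, *Slc16a3/Slc16a1*, *Pfkl/Pfkm* and *Epas1/Hif1a*, and the largest difference is that of *Aldoc/Aldoa* (-2.67).

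Start-site sequences are shown for 5 genes that rose, picked as HIF targets by background knowledge, and for *Aldoc*, which fell most. They are not all the genes that rose. They are RefSeq windows of 250 bases before to 50 after a start site on GRCm38.p6, the first window listed for each gene, written 5′ to 3′ on the strand of the gene. Capitals mark ACGTG and GCGTG, the core letters of hypoxia response elements, on either strand (CACGT and CACGC on the strand shown), and overlapping matches such as CACGTG count as 1.
Hk2, chr6:82774405-82774704, minus strand: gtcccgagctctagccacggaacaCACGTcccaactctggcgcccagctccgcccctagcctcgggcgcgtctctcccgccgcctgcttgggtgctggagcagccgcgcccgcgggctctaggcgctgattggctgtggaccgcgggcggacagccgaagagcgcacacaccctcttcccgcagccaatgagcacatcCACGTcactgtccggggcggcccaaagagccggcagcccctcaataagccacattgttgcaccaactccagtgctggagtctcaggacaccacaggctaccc
Slc16a3, chr11:120948817-120949116, plus strand: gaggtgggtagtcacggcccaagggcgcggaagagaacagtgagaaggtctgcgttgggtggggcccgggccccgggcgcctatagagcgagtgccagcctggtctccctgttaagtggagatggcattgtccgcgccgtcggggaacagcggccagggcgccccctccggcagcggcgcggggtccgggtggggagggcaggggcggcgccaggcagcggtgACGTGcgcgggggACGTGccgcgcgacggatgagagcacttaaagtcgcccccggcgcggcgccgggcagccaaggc
Bnip3, chr7:138909457-138909756, minus strand: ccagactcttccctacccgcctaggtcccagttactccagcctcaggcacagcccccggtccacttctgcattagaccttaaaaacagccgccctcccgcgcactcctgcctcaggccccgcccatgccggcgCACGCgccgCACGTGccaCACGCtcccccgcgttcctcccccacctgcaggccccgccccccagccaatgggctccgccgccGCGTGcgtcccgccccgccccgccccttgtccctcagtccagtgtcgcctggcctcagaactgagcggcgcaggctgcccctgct
Pdk1, chr2:71872974-71873273, plus strand: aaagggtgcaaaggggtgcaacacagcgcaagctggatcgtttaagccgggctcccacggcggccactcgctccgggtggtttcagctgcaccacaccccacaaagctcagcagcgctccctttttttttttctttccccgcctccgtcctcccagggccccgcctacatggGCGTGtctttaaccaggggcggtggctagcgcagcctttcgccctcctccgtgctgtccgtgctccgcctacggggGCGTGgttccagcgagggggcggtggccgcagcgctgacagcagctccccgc
Ldha, chr7:46845554-46845853, plus strand: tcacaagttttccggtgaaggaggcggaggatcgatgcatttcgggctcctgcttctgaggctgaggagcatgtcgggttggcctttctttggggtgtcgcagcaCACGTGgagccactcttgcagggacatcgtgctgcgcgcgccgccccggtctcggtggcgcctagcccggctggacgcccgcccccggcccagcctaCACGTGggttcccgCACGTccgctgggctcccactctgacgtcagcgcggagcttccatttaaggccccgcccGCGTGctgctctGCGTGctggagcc
Aldoc, chr11:78322823-78323122, plus strand: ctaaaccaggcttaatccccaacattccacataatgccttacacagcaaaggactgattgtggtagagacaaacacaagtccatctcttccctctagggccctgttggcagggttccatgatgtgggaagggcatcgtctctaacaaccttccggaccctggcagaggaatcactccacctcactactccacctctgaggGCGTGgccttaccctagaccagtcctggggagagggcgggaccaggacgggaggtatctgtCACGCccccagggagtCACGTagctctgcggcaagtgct

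The windows of *Slc16a3* and *Hk2* each held 2 matches, at bases -27 and -14 and at -226 and -52 from the start site. *Bnip3* held 4, including CACGTG at -108, and *Ldha* held 5, including CACGTG at -145 and -48. *Pdk1* had 2 matches of the GCGTG type, and *Aldoc* had 3. Among genes that rose and are not shown, the first window held 0 matches for *Gpi1* and *Pkm*, 1 for *Pfkl* and 2 for *Pgk1*. A second window of *Pkm* held 2. Windows were found for 32 of the 35 genes, and 29 of these (90.6%) had a match in at least 1 window, against 46.7% of 27025 genes. By direction, a match was present in 8 of 9 genes that rose, in both that fell and had a window (*Aldoc* and *Pdk4*) and in 19 of 21 that did not pass, so the letters did not separate them. GC content of the windows had a median of 62.0% over these genes and 52.7% over all windows, and both motifs hold a CG step. A match is a run of letters and not evidence of binding.

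Genes of the same and neighbouring pathways outside the 35 were taken from 6 lists. Of 90 genes 73 were tested, of which 4 rose and 3 fell, beside 3.67% and 1.87% of all tested genes, and nothing particular to these lists is read from counts this small. Among 13 tested genes of other glycolytic and gluconeogenic enzymes, 10 of pyruvate entry into mitochondria and 9 of other glucose and monocarboxylate transporters, none passed, with medians of 0.09, -0.05 and 0.16 on the log2 scale. In the pentose phosphate pathway *Taldo1*, which encodes transaldolase, rose, at 43.2, 44.6 and 47.7 FPKM in cKO and 32.4, 38.7 and 34.6 FPKM in Control libraries (log2 0.36, limma, adjusted p = 0.0418), the 1 of 8 that passed. *Vhl*, the ubiquitin ligase subunit that captures hydroxylated HIF alpha, fell, at 14.1, 14.5 and 13.5 FPKM in cKO and 16.5, 17.3 and 16.6 FPKM in Control libraries (log2 -0.26, limma, adjusted p = 0.0488), the 1 of 7 HIF subunits and regulators that passed.

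Of 27 tested hypoxia response genes 3 rose and 2 fell, where 3.67% and 1.87% of all tested genes did so, and the median was 0.24 beside 0.07 over all tested genes. *Ddit4*, an inhibitor of mTORC1 induced by stress, was 60.1, 61.6 and 52.3 FPKM in cKO and 38.3, 43.0 and 38.3 FPKM in Control libraries (log2 0.54, limma, adjusted p = 0.0126). *P4ha1*, a collagen prolyl hydroxylase, was 6.53, 6.41 and 5.99 FPKM in cKO and 3.99, 3.25 and 4.54 FPKM in Control libraries (log2 0.68, limma, adjusted p = 0.0281). Both had groups that did not overlap. *Trf*, which encodes transferrin, was 4.003, 3.76 and 6.29 FPKM in cKO and 2.04, 1.87 and 2.11 FPKM in Control libraries (log2 1.15, limma, adjusted p = 0.0196). Oligodendrocyte lineage sums beside it were 314.4, 404.5 and 402.1 in cKO and 111.9 to 147.2 in Control libraries. Choroid plexus sums were 346.3, 200.9 and 912.8 in cKO and 46.3, 117.8 and 194.2 in Control libraries. The part of either in the rise of *Trf* was not tested. *Ppp1r3c*, a glycogen-targeting subunit of protein phosphatase, fell to 2.82, 2.65 and 4.13 FPKM in cKO, against 9.59, 10.6 and 10.8 FPKM in Control libraries (log2 -1.69, adjusted p = 0.00233). *Rora*, a nuclear receptor, fell by 0.49 on the log2 scale, close to the threshold (adjusted p = 0.0499).

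**Figure D5:**
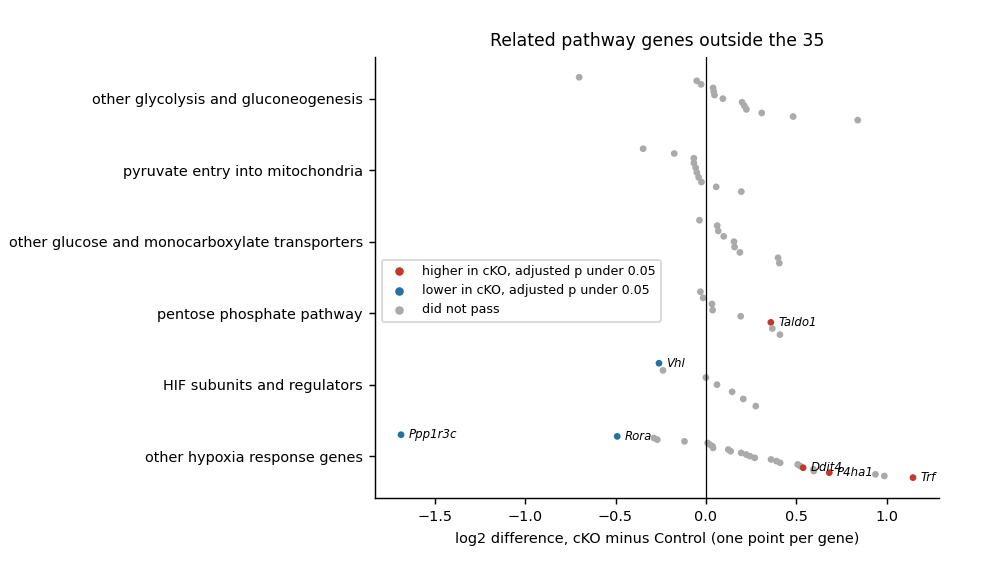
Log2 difference, cKO minus Control, of each tested gene in the 6 lists, with genes past an adjusted p of 0.05 coloured and named. The 7 named genes include *Ppp1r3c* at -1.69 and *Trf* at 1.15, and no gene is named in the first 3 lists.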

How the data were processed

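RNA sequencing values came from 6 cortex libraries. The values deposited by the authors are FPKM, per the file headers, and were not raw counts. Per the submitters' processing notes the build was mm10. No aligner, counting program or strand setting is named in the sources used here. The per-library tables deposited by the authors matched the series-wide one in all 34745 genes. In single-transcript genes 56.7% to 67.1% of values above 0 came out within 0.01 of a whole fragment at the implied depth, against 2.71% to 3.15% in genes with several transcripts, so whole counts could not be had back and limma on log values was used alone.

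Genes that reached 0.5 FPKM in 3 or more libraries were tested with limma 3.58.1 in R 4.3.3 on log2(FPKM + 0.1), with a mean-variance trend, robust estimation, group as the only term and Benjamini-Hochberg adjustment. This scale understates changes of low genes. The limma fit was tested on simulated log values with normal errors drawn from its own fitted variances. That check does not cover the filter, the scaling or the FPKM values themselves. Ratios were tested with the exact permutation test of SciPy 1.17.1. Length and GC content came from GENCODE M21. Coordinates are those deposited, counted from 1. Start-site sequences are RefSeq's. Overlapping genes on the opposite strand exist for *Pfkm*, *Pfkp*, *Aldoa*, *Tpi1*, *Gapdh* and *Ankrd37*, whose fragments cannot be told apart if strand was not used.

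The genes and lists were chosen with earlier results of these data known. Per-library values are given for called genes, the genes set against them in a ratio, the most abundant gene of each role and some others, and ranges for the rest. From the other lists, called genes are named, at most 4 per list by smallest p. *Rora* was the fifth hypoxia gene and was added after its values were seen. Alternatives varied filter, pseudocount, scaling, variance model, block, length and GC correction, and each library left out.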

Additional observations from a re-analysis of the deposited data

How the results depend on the processing

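Against 783 genes called in all, separate fits called 499 with no filter on low values (323 higher) and 456 with the replicate number as a block (290 higher, 166 lower). With scaling changed, 314 were higher by median ratios, 907 by equal sums and 324 after the length and GC correction. The median log2 difference over all genes was 0.07, and it was 0.12 with equal sums, -0.000902 with median ratios, 0.00941 with upper quartiles and -0.0122 after the correction. Against 9 of the 35 genes that rose, 4 rose without a mean-variance trend, 4 with the block, 5 after the length and GC correction, 6 with median ratios and 13 with equal sums, which added *Aldoa*, *Egln1*, *Pgam1* and *Tpi1*. Besides *Gpi1*, calls of *Pgk1* and *Ldha* ended with median-ratio scaling, without the trend, with the block and after the correction, and that of *Bnip3* under the last 3 of these. *Epas1* lost its call with no filter and without the trend, *Pkm* without the trend, and *Hk2*, *Pdk1* and *Pdk4* with the block, while *Aldoc*, *Pfkl* and *Slc16a3* passed under all 11 settings that kept every library. With the block 5 of the 12 calls were shared and *Eno1* was added. The groups share only a replicate number: deviations of same-numbered samples correlated at 0.0606, 0.0116 and 0.1, and cKO replicate 2 correlated better with Control replicate 1 (0.0562) than with its own number. In the other lists, against 4 higher and 3 lower, calls were 2 and 1 with no filter, 9 higher with equal sums, 2 and 1 with the block and 1 higher after the correction.

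With 1 library left out, 220 to 842 genes were called, 135 to 582 higher and 85 to 309 lower. Of the 35 genes 1 to 9 rose and 1 to 3 fell, and in the other lists 1 to 5 rose and 1 or 2 fell. Signs turned only in genes that did not pass. *Hif1a* was -0.0539, -0.0434 and -0.0463 and *Gapdh* -0.0621, -0.0516 and -0.0789 with median ratios, upper quartiles and the correction, and with equal sums *Pfkm* was 0.0034 and *Pfkfb4* 0.0178. Over libraries left out, log2 differences spanned -0.0282 to 0.0662 for *Hif1a*, -0.0293 to 0.0474 for *Gapdh*, -0.13 to 0.0463 for *Pfkfb4*, -0.0892 to 0.33 for *Pfkp*, -0.18 to 0.0334 for *Slc2a1*, -0.14 to 0.0381 for *Eno2*, -0.0877 to 0.0106 for *Pfkm*, -0.10 to 0.41 for the ratio *Pfkp/Pfkm* and -0.13 to 0.0507 for *Egln3/Egln1*. In this balanced design the block cannot move ratio differences, so *Aldoc/Aldoa* stayed at -2.67. The exact permutation p of that ratio was 0.25 with the block and 0.1 without it. The cause of these changes was not tested. Low genes such as *Slc16a3* and *Ankrd37* rest on 23 to 65 and 19 to 24 estimated fragments in Control libraries.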
